A study of Mus musculus with 133 samples.

Results

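Gene expression was compared between very old and young normal liver within 1 library mix. The groups were hepatocytes of female C57BL/6 mice aged 100 weeks (VOF) and of female C57BL/6 mice aged 11 to 14 weeks (YF), isolated by collagenase digestion from livers that had no surgery (NL). The 6 libraries were chosen by their names: VOF 1, 2 and 3 and YF 1, 2 and 3 are the libraries of these ages and this condition that carry the name of mix 2, out of 133 libraries in the table. RNA was counted by 3'UTR-seq (CEL-seq2), in which each transcript carries a unique molecular identifier (UMI) and only its 3' end is read. The study followed liver regeneration after partial hepatectomy in male mice of 3 ages, and its female libraries entered the batch correction of the counts. Mix 2 is the only mix that holds NL of both the youngest and the oldest age, so that age and mix do not run together in these 6 libraries, as they do in the male NL libraries (YM in mix 7 and VOM in mix 8). YM were males aged 11 to 14 weeks and VOM males aged 100 weeks. Also used for comparison were NL of females aged 60 weeks (OF), and VOF and YF libraries 52 h and 4 days after sham surgery.

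The hepatocyte makes most plasma proteins, conjugates and oxidises steroids, bile acids and drugs, and takes up organic anions from blood through carriers of its sinusoidal membrane. Many of these genes differ between the sexes in the mouse, since the pattern of growth hormone release differs between males and females and is read by the liver through JAK2 and STAT5. P450 enzymes of the Cyp2 and Cyp3 families, sulfotransferases (SULT), major urinary proteins (MUP) and organic anion carriers are the best known of these sex-biased genes.

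Markers of sex and cell type were checked first. Xist, the RNA that coats the inactive X chromosome, had 188 to 943 counts in the 6 libraries, and the Y-linked genes Ddx3y, Eif2s3y, Kdm5d and Uty had 0 counts in all of them. Alb, the gene of serum albumin, lay at 3870, 7104 and 5813 CPM (counts relative to the library total, adjusted with the TMM factors of edgeR) in YF and at 4611, 5488 and 3218 CPM in VOF, and the groups overlapped. Summed marker levels also overlapped for Kupffer cells and macrophages (337 to 844 CPM in YF, 549 to 1778 in VOF, 16 markers tested), sinusoidal endothelial cells (380 to 511 and 355 to 493, 15 tested), stellate cells and fibroblasts (201 to 258 and 236 to 293, 13 tested) and cholangiocytes (603 to 949 and 641 to 1117, 5 tested). All 16 Kupffer cell and macrophage markers had a log2 fold change above 0 (0.23 to 1.31), and none of them was called. In their sum VOF 1 and 3 (549 and 636 CPM) lay within the YF range, and only VOF 2 (1778 CPM) lay above it. The exception was the B cell and plasma cell list, whose 6 tested markers summed to 53.8 to 65.6 CPM in YF and to 98.4 to 449 CPM in VOF. The hepatocyte list summed to 26013 to 36486 CPM in YF and to 20573 to 28423 CPM in VOF (13 tested), and the erythroid list to 17.9 to 42.0 and 7.52 to 22.3 CPM (5 tested). None of the 16 T cell and NK cell markers and 1 of the 10 neutrophil markers passed the filter on low values. In such bulk samples more cells of a type and more RNA per cell cannot be told apart.

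A set of 28 genes had 0 counts in at least 1 of the 6 libraries and 1000 counts or more in another, a rule set after the values were seen. They made up 69.8, 51.6 and 57.2% of all counts in VOF 1, 2 and 3 and 0.950, 1.67 and 2.18% in YF 1, 2 and 3. With them the totals were 1751072, 1094968 and 410951 in YF against 4415925, 2505024 and 3529296 in VOF, every VOF library above every YF library. Without them the totals were 1734438, 1076691 and 402000 in YF against 1333054, 1212552 and 1509760 in VOF, and the groups overlapped. Of the 28 genes, 19 reached 1000 counts in none of the other 127 libraries of the table. The UMI correction that the authors describe can return at most 34069.6 transcripts for a gene, and 15 genes exceeded it in these libraries. What produced these values was not tested, and the test was also run without the 28 genes.

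**Figure D1:**
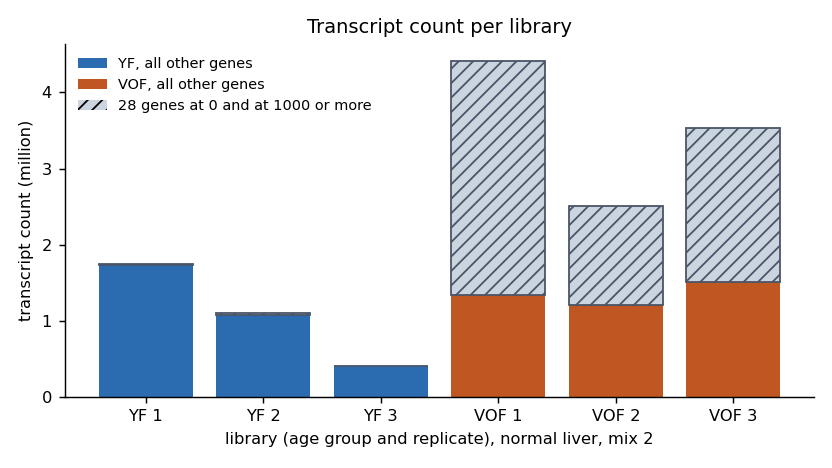
Transcript count per library (bar height, from 0) for YF 1 to 3 and VOF 1 to 3. The hatched segments are the 28 genes with 0 counts in 1 library and 1000 or more in another; without them VOF 1 to 3 hold 1333054, 1212552 and 1509760 counts, between the shallowest and the deepest YF library.

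Distances between whole profiles were compared with and without these 28 genes. Over all tested genes the root mean square difference of log2(CPM + 4) was 0.684 to 0.880 between a YF and a VOF library (9 pairs), 0.550 to 0.673 within YF and 0.646 to 0.667 within VOF (3 pairs each). Without the 28 genes it was 0.531 to 0.811 between the ages, 0.614 to 0.786 within YF and 0.529 to 0.599 within VOF. The first principal component then held 36.9% of the variance and set YF 3, the shallowest library, at -59.5 apart from YF 1 at 8.08, YF 2 at -1.68 and VOF 1, 2 and 3 at 17.6, 16.7 and 18.8. Every VOF library lay above every YF library on it, while distances between the ages overlapped those within each age.

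Few genes were called between the ages. The quasi-likelihood test of edgeR, with thresholds of 0.1 on the Benjamini-Hochberg adjusted p and of 2-fold on the change, called 26 of 10958 genes (0.237%): 16 higher (0.146%) and 10 lower (0.0913%) in VOF. At an unadjusted p under 0.05 there were 633 genes (5.78%). The median log2 fold change over all genes was -0.0032. Without the 28 genes the test called 21 of 10969 genes (0.191%), 9 higher (0.082%) and 12 lower (0.109%). The libraries deeper than YF 2 (1076691 counts without the 28 genes) were then also thinned to its depth, while YF 3 stayed at 402000. That fit called 25 genes, of which 14 (0.128%) were lower. DESeq2 called 81 genes (0.739%), among them 25 of the 26, and the fit with a replicate block called 67 (0.611%). The spread between replicates was wide, with a common dispersion (the squared biological variation of edgeR) of 0.0954 in these 6 libraries against 0.0428 in the 6 male NL libraries. Without the 28 genes the dispersion of the 6 female libraries was 0.0766.

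Of the 16 genes called higher, 7 belonged to the 28. Spout1, Cdk20, Nrap, Bag2, Pdgfc and the pseudogenes Gm8399 and Hmgb1-ps2 had 0 counts in YF 1, 2 and 3 and between 7676 and 103465 counts in each VOF library. Against the floor of 3 counts per library, their mean level in VOF was at least 1908-fold (Pdgfc) to 14680-fold (Spout1) higher. Spout1, Cdk20, Gm8399 and Hmgb1-ps2 had at most 32 counts in any library outside these 6, while Bag2 reached 1000 counts in 29 of them, Pdgfc in 9 and Nrap in 7. A large step of this kind in 3 libraries of 1 age alone is given here as a value only, and the 7 genes are not counted with the genes described next.

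The 9 other genes called higher and the 10 genes called lower had groups that did not overlap in CPM, as had 11% of all tested genes. In the plot of called genes by library, the 3 VOF points lie on one side of the 3 YF points for each of them.

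**Figure D2:**
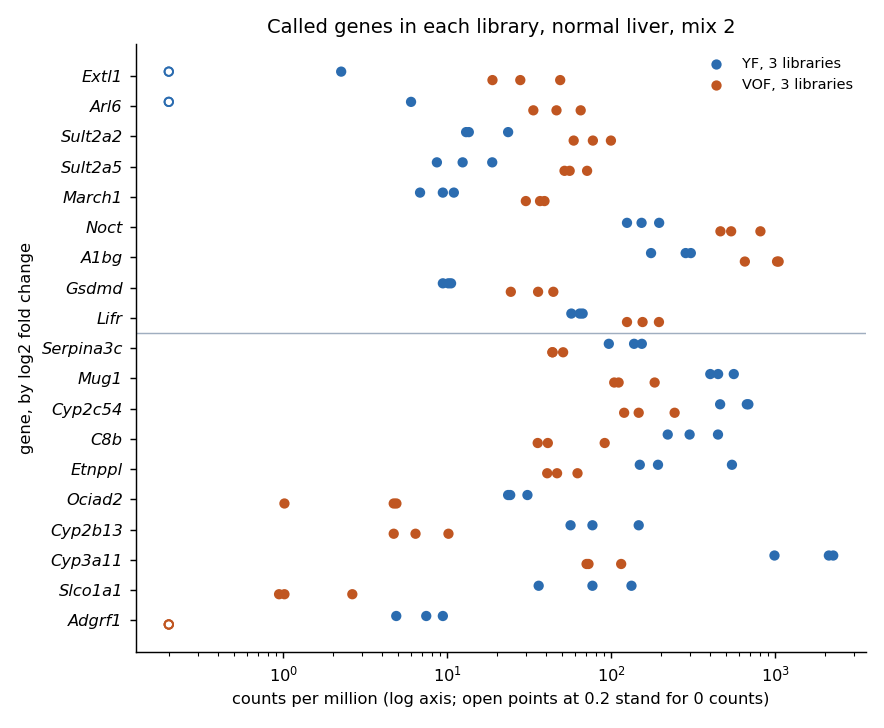
Level of each called gene outside the 28 in the 6 libraries, in CPM on a log axis (blue, YF; orange, VOF; open points at 0.2 stand for 0 counts). Genes above the line were called higher in VOF and genes below it lower, for example Cyp3a11 at 986 to 2250 in YF and at 70.5 to 115 in VOF.

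Slco1a1 and Cyp3a11 were called lower. Slco1a1 (chromosome 6, 141907282 to 141946962, minus strand, GRCm38), the carrier OATP1A1 that takes bile acids and steroid conjugates from blood into the hepatocyte, stood at 36.0, 132 and 76.6 CPM in YF and at 0.941, 1.01 and 2.63 CPM in VOF. It fell by 5.61 ± 0.59 on the log2 scale (SE, adjusted p = 0.0014), and the VOF values rest on 2, 2 and 7 counts. Cyp3a11 (chromosome 5, 145854426 to 145879964, minus strand), a P450 enzyme that oxidises steroids and many drugs, stood at 2250, 2116 and 986 CPM in YF and at 72.4, 70.5 and 115 CPM in VOF. It fell by 4.38 ± 0.43 (adjusted p = 9.2e-04), a 20.8-fold difference.

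A pair of further P450 genes fell. Cyp2b13, a P450 gene with higher expression in female mice, lay at 147, 56.3 and 76.6 CPM in YF and at 4.70, 10.1 and 6.39 CPM in VOF (log2 fold change -3.74 ± 0.43, adjusted p = 0.0031). Cyp2c54, a P450 gene of the 2C family, lay at 684, 460 and 669 CPM in YF and at 243, 147 and 119 CPM in VOF (-1.83 ± 0.32, adjusted p = 0.065). These genes have close copies in the genome, and reads of their 3' ends could have been split among them.

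The other 6 genes called lower include secreted proteins. C8b, the beta chain of complement component C8, fell from 300, 446 and 220 CPM in YF to 40.9, 35.5 and 90.9 CPM in VOF (-2.53 ± 0.39, adjusted p = 0.033). Mug1, a murinoglobulin that traps proteases in plasma, fell from 400, 557 and 447 CPM to 104, 111 and 183 CPM (-1.82 ± 0.29, adjusted p = 0.038). Serpina3c, a serine protease inhibitor with close copies, fell from 96.4, 137 and 153 CPM to 43.7, 43.6 and 50.7 CPM (-1.47 ± 0.25, adjusted p = 0.057). In each of the 3 genes the highest VOF library lay below the lowest YF library.

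Etnppl, the lyase that breaks down phosphoethanolamine, fell from 149, 543 and 192 CPM to 62.1, 40.6 and 46.6 CPM (-2.57 ± 0.45, adjusted p = 0.065), with YF 2 far above the other YF libraries. Ociad2 fell from 30.7, 24.1 and 23.4 CPM to 4.70, 1.01 and 4.89 CPM (-2.85 ± 0.44, adjusted p = 0.033). Adgrf1, an adhesion G protein-coupled receptor, had 4.87, 7.43 and 9.38 CPM in YF and 0 counts in all 3 VOF libraries, so that its mean in YF was at least 5.34-fold higher than the floor of 3 counts per VOF library (adjusted p = 0.041).

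The genes called higher included sulfotransferases. Sult2a2 (chromosome 7, 13733505 to 13779636, plus strand) and Sult2a5 (chromosome 7, 13623967 to 13670807, plus strand) encode enzymes of the SULT2A group, which add sulfate to bile acids and hydroxysteroids. Sult2a2 rose from 13.5, 12.996 and 23.4 CPM in YF to 99.2, 58.8 and 77.0 CPM in VOF (2.32 ± 0.32, adjusted p = 0.017). Sult2a5 rose from 8.62, 12.4 and 18.8 CPM to 71.0, 51.7 and 55.6 CPM (2.28 ± 0.32, adjusted p = 0.017).

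A1bg, which encodes the plasma glycoprotein alpha-1-B and is expressed more in female liver, rose from 174, 283 and 305 CPM to 651, 1022 and 1045 CPM (1.84 ± 0.33, adjusted p = 0.066). Lifr, the receptor of leukaemia inhibitory factor, rose from 66.7, 56.9 and 64.1 CPM to 155, 195 and 124 CPM (1.33 ± 0.25, adjusted p = 0.090). Noct, the rhythmic gene nocturnin that encodes a phosphatase of NADP(H), rose from 153, 124 and 195 CPM to 810, 537 and 462 CPM (1.94 ± 0.30, adjusted p = 0.033). The hour at which the livers were taken is not given in the sources used here, and the clock genes are described further on.

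Gsdmd, gasdermin D, which forms membrane pores in pyroptosis, rose from 10.1, 10.5 and 9.38 CPM to 44.2, 24.3 and 35.7 CPM (1.78 ± 0.31, adjusted p = 0.065). March1, a membrane ubiquitin ligase, rose from 9.37, 6.81 and 10.9 CPM to 36.7, 39.1 and 30.1 CPM (2.00 ± 0.30, adjusted p = 0.025). Arl6, a small GTPase of ciliary transport, had 6.00, 0 and 0 CPM in YF and 33.4, 64.9 and 46.2 CPM in VOF (adjusted p = 0.043). Extl1, a glycosyltransferase of heparan sulfate synthesis, had 2.25, 0 and 0 CPM in YF and 18.8, 48.7 and 27.8 CPM in VOF (adjusted p = 0.023). For these last 2 genes a pair of YF libraries held 0 counts, and the fitted fold change depends on the prior count of the test.

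The calls rested unequally on the single libraries. When each of the 6 libraries was left out in turn, Slco1a1, Cyp3a11, Cyp2b13, Sult2a2, Sult2a5, March1 and Extl1 were called all 6 times, C8b and Ociad2 5 times, Mug1, Noct and Arl6 4 times, Etnppl and Adgrf1 3 times, Cyp2c54 2 times, and Serpina3c, A1bg, Lifr and Gsdmd 1 time. None of the 19 changed direction.

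The promoters of 4 of these genes are printed because the genes moved by age both in NL and after sham surgery, 2 of them down and 2 up. They are RefSeq sequences of GRCm38.p6 from 250 bases before to 50 after the start of the gene, read 5' to 3' along the gene, with capitals at the letters TTCNNNGAA (the core that STAT5 binds), AGGTCA (a core site of nuclear receptors), GTTAAT (a core of the HNF1 site) and CACGTG (an E-box), searched on both strands.
Cyp3a11 (chr5:145879805-145880104, minus strand): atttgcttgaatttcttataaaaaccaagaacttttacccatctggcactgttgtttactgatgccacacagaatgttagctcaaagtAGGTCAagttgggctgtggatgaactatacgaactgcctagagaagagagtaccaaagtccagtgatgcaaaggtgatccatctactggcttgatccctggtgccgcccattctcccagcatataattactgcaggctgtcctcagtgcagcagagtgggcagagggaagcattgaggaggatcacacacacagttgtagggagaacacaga
Slco1a1 (chr6:141946913-141947212, minus strand): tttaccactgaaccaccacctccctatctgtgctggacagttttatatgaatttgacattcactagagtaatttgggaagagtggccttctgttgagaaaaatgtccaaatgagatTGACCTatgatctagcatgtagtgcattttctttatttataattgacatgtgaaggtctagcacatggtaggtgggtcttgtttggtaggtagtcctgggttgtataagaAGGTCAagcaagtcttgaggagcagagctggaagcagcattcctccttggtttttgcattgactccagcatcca
Sult2a5 (chr7:13623717-13624016, plus strand): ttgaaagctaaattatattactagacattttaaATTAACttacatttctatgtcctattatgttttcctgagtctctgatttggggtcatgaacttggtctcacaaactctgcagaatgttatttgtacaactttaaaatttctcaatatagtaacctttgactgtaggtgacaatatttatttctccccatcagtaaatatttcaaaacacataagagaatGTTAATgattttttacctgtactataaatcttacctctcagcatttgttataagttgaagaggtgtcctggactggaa
A1bg (chr15:60921221-60921520, minus strand): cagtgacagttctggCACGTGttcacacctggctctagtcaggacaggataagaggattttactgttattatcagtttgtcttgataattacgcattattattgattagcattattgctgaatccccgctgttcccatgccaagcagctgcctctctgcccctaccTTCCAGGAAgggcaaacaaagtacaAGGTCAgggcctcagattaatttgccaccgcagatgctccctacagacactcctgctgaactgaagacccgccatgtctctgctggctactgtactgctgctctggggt

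A promoter was found by symbol for 15 of the 19 genes, 9 lower and 6 higher. AGGTCA stood in a promoter of 5 of the 9 lower and 2 of the 6 higher genes and in 16.3% of all 32851 promoters of this length. GTTAAT stood in 4 and 1 of them and in 7.10% of all promoters. TTCNNNGAA stood in none of the 9 and in 1 of the 6 (A1bg), against 8.30% of all promoters, and CACGTG in the same numbers, against 7.15%. A called gene counted where any of its promoters matched, while the percentages are of single promoters, so the 2 are not measured alike. The matches describe letters in these windows and no binding was measured.

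The sex-biased genes were described next. The lists used here were chosen with results of these data known. Among 39 tested female-biased liver genes 3 were called higher (Sult2a2, A1bg and Lifr) and 1 lower (Cyp2b13), against 0.146% and 0.0913% of all genes. In this list 13 had every VOF library above every YF library (6.39% of all genes had), while 3 had every VOF library below (4.65%). The 13 include Cyp3a16, Cyp3a41a, Cyp3a41b and Cyp3a44, close copies that may share reads, and Sult2a1, Sult2a2 and Sult2a3 of 1 family. They are thus not 13 independent genes. The median log2 fold change of the list was 0.53, against -0.0032 over all genes. Among 39 tested male-biased liver genes 1 was called lower (Slco1a1) and none higher, against 0.0913% and 0.146% of all genes. In that list 10 had every VOF library below every YF library (4.65% of all genes), and none had every VOF library above. The median of the list was -0.64. After sham surgery, described further on, the medians were -0.17 for the female-biased and -0.26 for the male-biased list, against 0.02 over all genes. In the female-biased list 12 genes were called higher and 5 lower there, against 2.56% and 1.27% of all genes. In the male-biased list 0 were called higher and 6 lower.

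Values of members that were not called follow. In the male-biased list Cib3 had 3.75, 17.9 and 7.81 CPM in YF and 0, 1.01 and 0 CPM in VOF (adjusted p = 0.16), Susd4 had 5.25, 4.95 and 4.69 CPM against 0, 1.01 and 1.13 CPM (adjusted p = 0.28), and the major urinary protein gene Mup4 had 355, 331 and 200 CPM against 120, 153 and 96.6 CPM (adjusted p = 0.21). Mup1 and Mup2, the most abundant members of that list, had log2 fold changes of 0.07 and 0.01. In the growth hormone, IGF and insulin list 0 of 37 genes were called. Stat5b, the transcription factor that carries the growth hormone signal, stood at 20.996, 19.8 and 20.3 CPM in YF and 41.9, 32.0 and 33.1 CPM in VOF (0.80 ± 0.25, adjusted p = 0.51), and Igf1 had a log2 fold change of -0.24 ± 0.27. Bcl6, a repressor of STAT5 target genes, stood at 24.4, 50.7 and 26.6 CPM against 8.47, 23.3 and 9.02 CPM (adjusted p = 0.52).

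The Sult2a genes were described as a family, in which Sult2a2 and Sult2a5 were called higher (0.146% of all genes were). Of the 7 tested Sult2a genes 6 had every VOF library above every YF library (6.39% of all genes). Sult2a8, the most abundant in YF, had every VOF library below (4.65%). Sult2a1 lay at 26.6, 23.5 and 131 CPM in YF and at 343, 305 and 310 CPM in VOF (2.51 ± 0.55, adjusted p = 0.21), with YF 3 apart from the other YF libraries. Sult2a4 lay at 2.62, 3.71 and 12.5 CPM against 29.6, 21.3 and 21.4 CPM (adjusted p = 0.17). Sult2a8 lay at 236, 202.4 and 308 CPM against 201.8, 165 and 106 CPM (adjusted p = 0.81). The 7 genes summed to 255 to 502 CPM in YF and to 585 to 762 CPM in VOF.

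Of the 9 tested Cyp3a genes Cyp3a11 was called lower (0.0913% of all genes were), and 4 had groups that overlapped. In YF 1, 2 and 3 Cyp3a11 made up 63.9, 77.5 and 44.1% of the summed CPM of the 9 genes, and in VOF 1, 2 and 3 it made up 2.89, 3.76 and 4.67%. Together the female-biased Cyp3a16, Cyp3a41a, Cyp3a41b and Cyp3a44 made up 19.9, 8.20 and 41.3% in YF and 81.3, 75.7 and 75.4% in VOF. Their VOF libraries all lay above their YF libraries, for example Cyp3a44 at 125, 45.8 and 173 CPM in YF and at 438, 296 and 433 CPM in VOF (1.78 ± 0.41, adjusted p = 0.21), and none of the 4 was called. The sum over the 9 genes was 2235 to 3521 CPM in YF and 1873 to 2504 CPM in VOF, and overlapped. These shares compare genes of 1 library and do not depend on the scaling between libraries, but the genes are close copies whose 3' ends may share reads.

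**Figure D3:**
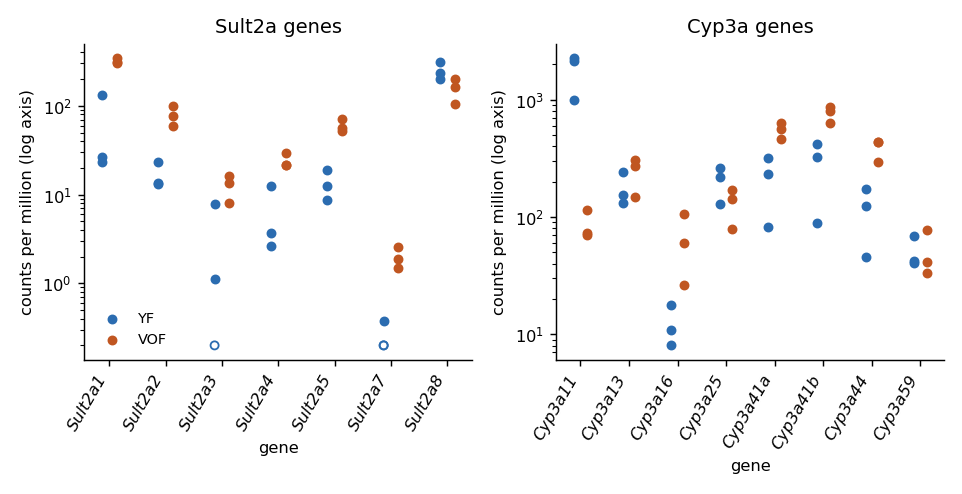
Level of each tested Sult2a gene (left) and of 8 Cyp3a genes (right) in the 3 YF (blue) and 3 VOF (orange) libraries, in CPM on log axes, with open points at 0.2 for 0 counts. Cyp3a11 is highest of its family in YF and drops to 70.5 to 115 in VOF, while Cyp3a16, Cyp3a41a, Cyp3a41b and Cyp3a44 lie higher in VOF than in YF.

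Over all 45 tested P450 enzymes of families 1 to 3, 3 were called lower and none higher, against 0.0913% and 0.146% of all genes. Of the 45, 10 had every VOF library below every YF library (4.65% of all genes) and 9 had every VOF library above (6.39%). In 20 of them the unadjusted p was under 0.05 (5.78% of all genes). Cyp2a22 lay at 31.5, 30.3 and 37.5 CPM in YF and at 231, 86.2 and 62.8 CPM in VOF (adjusted p = 0.21). Cyp2c67 had a log2 fold change of -1.05 ± 0.33 and Cyp2c40 one of -0.99 ± 0.31, and neither was called. Cyp2c29 and Cyp2c70 had log2 fold changes of 0.10 ± 0.36 and 0.22 ± 0.29. Among 21 other P450 enzymes none was called, and Cyp17a1 had 0.53 ± 0.39.

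**Figure D4:**
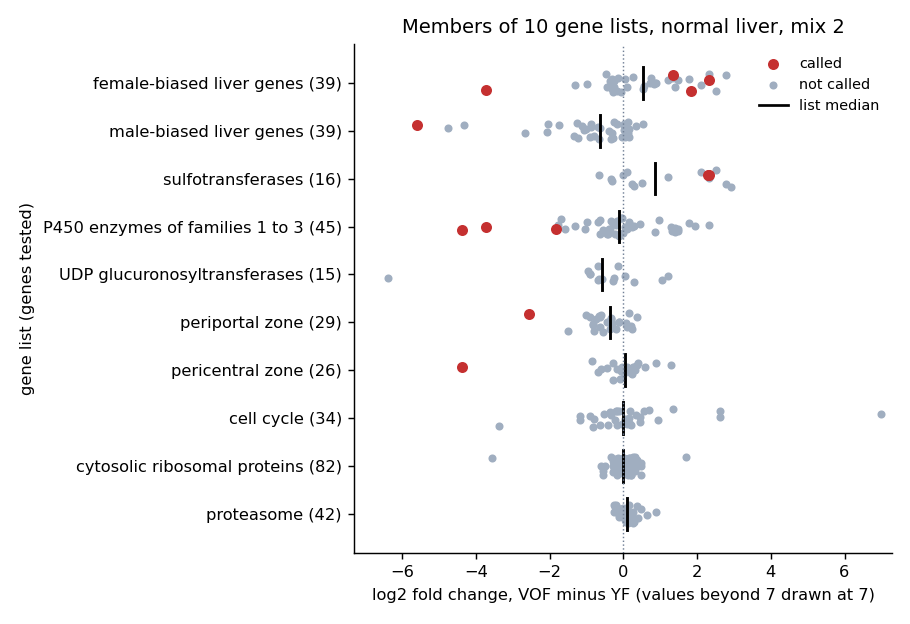
Log2 fold change of VOF against YF for each tested member of 10 gene lists (points; red where called), with the list median as a bar and the median of all genes as a dotted line. Red points lie in the lists of sex-biased genes, sulfotransferases, P450 enzymes and the zones of the lobule, and the ribosomal protein and proteasome lists centre near 0.

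Genes of the lobule's zones were compared next, since portal and central hepatocytes hold different enzymes. Of 29 periportal genes 1 was called lower (Etnppl), against 0.0913% of all genes. Among the 29, 10 had every VOF library below every YF library (4.65% of all genes) and 1 every VOF library above (6.39%). The median of the list was -0.38. Cdh1, E-cadherin of portal hepatocytes, had a log2 fold change of -1.51 ± 0.45 and Aldh1b1 one of -1.02 ± 0.26, and neither was called. Of 26 pericentral genes 1 was called lower (Cyp3a11), against 0.0913% of all genes, and the median was 0.04. Of 49 enzymes of amino acid and urea metabolism 1 was called lower (Etnppl), against the same share, and Gnmt, the most abundant, had -0.42 ± 0.38.

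Bile acid genes other than Slco1a1 were not called. Of 33 genes 1 was called (0.237% of all genes), 7 had every VOF library below (4.65%) and none every VOF library above (6.39%). Cyp7a1, the rate-limiting enzyme of bile acid synthesis, lay at 177, 140 and 166 CPM in YF and at 587, 50.2 and 177 CPM in VOF, a spread within VOF that covered the YF values. Cyp8b1, the sterol 12-hydroxylase, had a log2 fold change of 0.09 ± 0.33.

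Lipid genes held no call in the 26 genes of fatty acid synthesis, the 48 of fatty acid oxidation, the 27 of cholesterol synthesis and uptake, the 23 of lipid droplets and the 30 of apolipoproteins and lipoprotein handling. Scd1, the desaturase that makes monounsaturated fatty acids, was the most abundant gene of fatty acid synthesis. It lay at 2361, 3509 and 2268 CPM in YF and at 1093, 804 and 1029 CPM in VOF (-1.48 ± 0.36, adjusted p = 0.24), and it was called once the 28 genes were left out. Fads1 had a log2 fold change of 0.17 ± 0.32 and Apoe one of -0.43 ± 0.42. Glucose genes held no call in 40 tested, with Pck1 at -0.33 ± 0.32.

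Secreted defence proteins gave 1 call, C8b, among 48 genes of complement and coagulation (median 0.05) and none among 34 genes of the acute phase (median 0.41). Over all genes 0.237% were called. C3 had 0.22 ± 0.36. Serpina3k, a plasma protease inhibitor of the acute phase list, lay at 1707, 2492 and 2561 CPM in YF and at 945, 889 and 764 CPM in VOF (-1.38 ± 0.34, adjusted p = 0.24), and it too was called once the 28 genes were left out. Saa2, an acute phase apolipoprotein, had 1079, 0.619 and 6.25 CPM in YF and 0.470, 26.9 and 49.2 CPM in VOF, so that 1 YF library exceeded all others.

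Immune lists held no call. Of 56 interferon response genes 38 had a log2 fold change above 0 and the median was 0.25, with Ly6e at 0.50 ± 0.31 and Ifitm3 at 0.31 ± 0.32. Of 20 genes of MHC class I presentation the most abundant, B2m and H2-Q10, had -0.29 ± 0.28 and -0.33 ± 0.28, and Tap1, the peptide transporter, lay at 4.12, 2.48 and 4.69 CPM against 9.88, 6.59 and 10.9 CPM (adjusted p = 0.57). Ighm, the heavy chain of IgM, lay at 7.50, 4.95 and 21.9 CPM in YF and at 177, 35.5 and 44.0 CPM in VOF (3.15 ± 0.70, adjusted p = 0.21), and Igkc at 18.7, 9.28 and 32.8 CPM against 219, 28.4 and 44.0 CPM. These are products of plasma cells and not of hepatocytes.

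Genes often named with ageing were not called. Cdkn1a, the cell cycle inhibitor p21, lay at 0.375, 16.1 and 4.69 CPM in YF and at 0.470, 43.1 and 0.752 CPM in VOF, and it and the 24 other genes of its list were not called. Of 28 genes of the DNA damage response and 34 cell cycle genes none was called. Mki67, the Ki-67 antigen of cycling cells, lay at 2.25, 0 and 6.25 CPM against 14.6, 15.2 and 10.1 CPM (2.61 ± 0.67, adjusted p = 0.30), Birc5 at 1.4997, 0 and 0 CPM against 6.11, 5.07 and 4.13 CPM (adjusted p = 0.44), and Plk1 at 37.5, 34.7 and 45.3 CPM against 21.6, 21.8 and 18.4 CPM (adjusted p = 0.38). These 3 mitotic genes thus went in different directions, and none passed the test.

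Housekeeping lists centred near 0. The medians were -0.02 for 82 cytosolic ribosomal proteins, 0.02 for 76 mitochondrial ribosomal proteins, 0.10 for 42 proteasome genes, -0.02 for 68 lysosome and autophagy genes and -0.13 for 84 nuclear genes of oxidative phosphorylation, with no call in any of them. Clock genes (22 tested) held no call either, and Nr1d1, which encodes REV-ERB alpha, had -0.02 ± 0.34. In ER stress genes (35 tested, none called) Trib3 lay at 16.5, 10.5 and 15.6 CPM in YF and at 0, 0 and 5.26 CPM in VOF (adjusted p = 0.47), while Hspa5 had 0.39 ± 0.30. In all, 9 of 45 lists held a called gene, and some genes stand in more than 1 list. The lists covered 10 of the 26 called genes and 1444 of the 10958 tested genes.

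The age difference was also set out by gene length and chromosome. The median log2 fold change was 0.04 in the shortest of 5 bins of genes by span and -0.02 in the longest, and it lay between -0.05 and 0.04 on every nuclear chromosome. The 24 tested genes of the mitochondrial genome had a median of -0.33. The tRNA genes mt-Tl2 and mt-Tp are among the 28 and were at 0 in every YF library.

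The female age difference was then compared with that after sham surgery, in which the abdomen was opened by a midline incision and sutured. That comparison used VOF and YF libraries 52 h and 4 days after sham surgery, 6 libraries per age, no library of which was in mix 2, and no mix of which held both ages. The test called 423 of 11038 genes (3.83%), 283 higher (2.56%) and 140 lower (1.27%) in VOF. Of the 10 genes called lower in NL, 8 were called lower after sham surgery, which are 5.76% of the genes called lower there. All 10 had an adjusted p under 0.1 in the same direction. Over all 11038 genes 1774 had an adjusted p under 0.1 there, in either direction. Of the 9 genes called higher in NL outside the 28, 5 were called higher after sham surgery, 1.78% of those called higher there. None of the 7 higher genes among the 28 was called after sham surgery.

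Slco1a1 lay at 60.6 to 128 CPM in the 6 YF sham libraries (median 93.5) and at 0 to 3.58 CPM in the 6 VOF sham libraries (median 1.38). Cyp3a11 lay at 975 to 1910 CPM (median 1254) against 60.4 to 585 CPM (median 144), and Etnppl at 148 to 220 CPM (median 169) against 24.4 to 68.0 CPM (median 40.5). None of the 3 genes overlapped between the ages. C8b and Adgrf1 did not overlap either, and the log2 fold changes of the 5 genes were -6.30, -2.76, -2.06, -1.42 and -4.72. With Noct, described next, 6 of the 19 called genes did not overlap after sham surgery. The share of all genes without overlap there is not given here, so this count has no background.

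Among the higher genes, Noct lay at 80.2 to 375 CPM in YF (median 161) and at 431 to 626 CPM in VOF (median 508), without overlap. A1bg (2.37 ± 0.37), Sult2a5 (1.83 ± 0.29), Sult2a2 (1.52 ± 0.25) and Lifr (1.20 ± 0.33) were called as well, with overlapping ranges. Arl6 (-0.74), Extl1 (-0.04), Gsdmd (-0.19) and March1 (0.50) were not called after sham surgery. Of the SULT2A genes not called in NL, Sult2a1 lay at 16.3 to 164 CPM in YF and at 291 to 1228 CPM in VOF after sham surgery and Sult2a3 at 0 to 1.02 CPM against 11.9 to 49.5 CPM, and both were called.

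Across all 281 genes called higher after sham surgery and tested in both, 209 (74.4%) had a log2 fold change above 0 in NL, and of the 139 called lower 104 (74.8%) had one below 0. Their median log2 fold changes in NL were 0.41 and -0.37, against 1.39 and -1.29 after sham surgery. These libraries were not fully independent of each other: replicate 3 of each sham group stood in another mix than replicates 1 and 2 and was nearer the mean of the other libraries of its group than replicates 1 and 2 were, with a median difference of 0.116 to 0.148 (log2) against 0.161 to 0.279 over genes of at least 50 CPM. With replicates 1 and 2 alone the test called 166 genes (1.51%), 103 higher (0.935%) and 63 lower (0.572%), among them 6 of the 10 lower genes (Slco1a1, Cyp3a11, Etnppl, C8b, Cyp2c54 and Adgrf1) and 4 of the 9 higher genes (A1bg, Sult2a5, Sult2a2 and Noct).

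**Figure D5:**
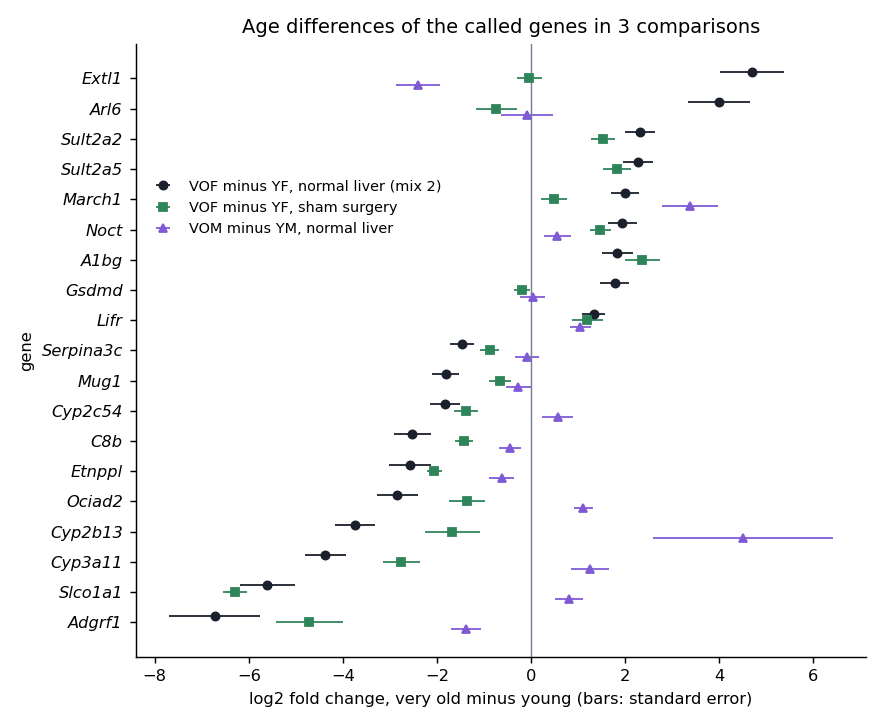
Log2 fold change of very old against young with its standard error for the 19 called genes in female normal liver of mix 2 (circles), in females after sham surgery (squares) and in male normal liver (triangles; A1bg, Sult2a2 and Sult2a5 were not tested in males). All 10 genes below 0 in female normal liver were below 0 after sham surgery, while Cyp3a11 was at 1.25 and Cyp2b13 at 4.51 in males.

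The male comparison, VOM against YM in NL, called 2171 of 10978 genes (19.8%), 1380 higher (12.6%) and 791 lower (7.21%), with age and mix not to be told apart. Of the 10 genes called lower in VOF, Adgrf1 was also called lower in VOM, while Cyp3a11 (1.25 ± 0.40), Ociad2 (1.11 ± 0.20) and Cyp2b13 (4.51 ± 1.92) were called higher. Slco1a1 had a log2 fold change of 0.80 ± 0.30 there and was not called. Of the 6 higher genes that could be tested in males, Lifr (1.05 ± 0.23) and March1 (3.38 ± 0.60) were called higher and Extl1 (-2.40 ± 0.48) lower. The genes called in males were spread over both signs in females: 730 of 1379 called higher (52.9%) had a log2 fold change above 0 in VOF against YF, and 391 of 785 called lower (49.8%) had one below 0.

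The difference of the 2 age effects was tested in 1 fit over the 12 libraries, and 1009 of 11006 genes (9.17%) passed, 453 higher (4.12%) and 556 lower (5.05%) in females than in males. All 10 genes called lower in VOF passed, among them Slco1a1 (female minus male -6.41, adjusted p = 6.7e-05) and Cyp3a11 (-5.62, adjusted p = 9.5e-05). Of the 9 higher genes outside the 28, A1bg, Sult2a2 and Sult2a5 were not tested in the male comparison. The SE of their difference was 2654, 4431 and 1.90, so that their not passing does not show an absent difference. Of the other higher genes, Extl1 (7.10), Arl6 (4.07), Gsdmd (1.74) and Noct (1.38) passed. All these genes were chosen by their change in the 6 female libraries that also enter this fit, so their passing is not separate support. Sex and mix cannot be told apart in that difference, since females and males shared no mix. Any shift between mix 7 (all YM) and mix 8 (all VOM) is part of the male age effect and so enters the difference.

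Libraries of other females without surgery gave levels for the same genes. OF libraries 1, 2 and 3, from mice aged 60 weeks in mix 12, were scaled with the other NL libraries. In these Slco1a1 stood at 20.5, 11.2 and 19.8 CPM, against means of 101 in YF and 1.89 in VOF on this scale. Cyp3a11 stood at 247, 552 and 184 CPM, against means of 2195 and 106. Sult2a5 stood at 98.0, 163 and 202.3 CPM, above the VOF mean of 73.9, while Cyp2b13 stood at 236, 302 and 261 CPM, above the YF mean of 115. On a log2 scale the OF mean was nearer to YF for 11 of the 19 genes and nearer to VOF for 8. It lay beyond YF for 3 of them (Cyp2b13, Lifr and March1) and beyond VOF for 2 (Sult2a2 and Sult2a5). Age and mix cannot be told apart here, since OF was in mix 12 and the compared YF and VOF libraries in mix 2. YF 4, a young library in mix 18, could not serve as a replicate. Its level was within 5% of the mean of YF 1, 2 and 3 for 92.7% of 2966 genes of at least 50 CPM, while each of YF 1, 2 and 3 was within 5% of the mean of the others for 13.3 to 14.7%. With YF 4 added, the test called 97 genes (0.883%), 67 of them higher (0.61%).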

How the data were processed

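RNA of isolated hepatocytes was sequenced by CEL-seq2. The authors mapped reads to GRCm38 (the labels list GRCh38 and bcl2fastq 2.20, and the identifiers are of mouse), counted UMIs, turned them into estimated transcript counts (there are 4096 UMIs), left out 9 genes, filtered on expression and ran ComBat-Seq; its batch variable and the low-expression cutoff are not given in the sources used here. The deposited expected counts (11049 genes, 133 libraries in 27 mixes) were rounded to whole numbers (1394 values in the 6 libraries were not whole). Because batches were adjusted before deposit, differences between libraries of different mixes may be altered, and the replicates can be less independent than their number.

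Genes reaching 0.5 CPM in any of the 6 libraries were tested with edgeR 4.0.16 in R 4.3.3 (quasi-likelihood test, TMM scaling, Benjamini-Hochberg adjustment), with calls at thresholds of 0.1 (adjusted p) and 2-fold. Male NL and sham libraries were fitted alone, and the difference between sexes in 1 fit. DESeq2 1.42.0 was an alternative. The tests were checked on simulated data. Symbols and coordinates are of GENCODE vM21 (11020 identifiers matched). Tables and plots were made with Python 3.11.15.

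The 6 libraries and the gene lists were chosen with earlier results of these data known. Named genes are called genes, the 10 largest changes per direction whose groups do not overlap, the 10 called genes of highest CPM, up to 6 called members per list or its 2 most abundant, and Alb, Cyp7a1 and Cdkn1a; other genes that were not called were chosen after their values were seen. Some genes that this rule names are not reported here. The labels give replicate numbers 1 to 3 in both groups but do not say that a number marks a shared batch or day, and same-numbered libraries did not deviate together (correlations 0.015, 0.037 and -0.024). The study gives 3 mice per point for males, and how female libraries relate to mice is not given in the sources used here, so p-values measure the spread between these libraries. Totals per library were 410951 to 4415925 counts, and 3 libraries per group limit the precision. Floors of 3 counts cover counting error only. No 2 libraries of a group were duplicates (chi-square per degree of freedom 5.59 to 15.1).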

Additional observations from a re-analysis of the deposited data

Results flagged for a closer look

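The fitted age effect in NL differed between females and males for 1009 genes in the test of the difference, in which sex and mix cannot be told apart. The male age effect also holds any shift between mix 7 (YM) and mix 8 (VOM). Values below are the female minus the male log2 fold change of very old against young. Among the genes with P450 and related roles they were -5.62 for Cyp3a11, -7.86 for Cyp2b13, -2.40 for Cyp2c54, 2.94 for Cyp3a16, 2.61 for Cyp3a44, 5.08 for Cyp2a22, 2.50 for Cyp17a1, 2.06 for Cyp8b1, 1.79 for Gstp3 and -1.29 for Aldh1b1. Among transport, receptor and sex-biased genes they were -6.41 for Slco1a1, -7.04 for Cib3, -3.23 for Susd4, -1.73 for Mup4, 1.43 for Prlr, 2.07 for Bcl6 and -5.86 for Adgrf1. Among secreted proteins they were -2.07 for C8b, -1.54 for Mug1, -1.38 for Serpina3c, -5.52 for Saa2 and -2.02 for Hamp. Among the remaining genes they were -1.93 for Etnppl, 1.11 for Etnk2, -1.77 for Scd1, -3.96 for Ociad2, 1.38 for Noct, 1.74 for Gsdmd, 4.07 for Arl6, 7.10 for Extl1 and -6.50 for Plk1.

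For 9 of the genes with 0 and 1000 counts or more among the 6 female libraries the difference was 21.65 for Spout1, 19.72 for Cdk20, 19.07 for Nrap, 27.73 for Bag2, 14.44 for Pdgfc, 17.98 for Gm8399, 17.63 for Hmgb1-ps2, 21.73 for mt-Tl2 and 18.48 for mt-Tp. These are fitted values that depend on the prior count.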

How the results depend on the processing

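The 3 libraries per group, a shallow YF 3 and the counts of the 28 genes limit these results, and a gene that was not called is not shown to be equal between the ages. All 19 called genes outside the 28 kept their direction under the alternatives in which they were tested. DESeq2 called 81 genes (57 higher, 24 lower), YF 4 added gave 97 (67 and 30), and all NL libraries gave 133 (101 and 32). Without the 28 genes 9 were higher. Leaving out 1 library gave 18 to 28 higher and 6 to 11 lower (28 and 11 without YF 1, 6 lower without VOF 1, 25 higher without VOF 2). The difference between sexes gave 556 to 1005 genes when 1 library was left out (556 without YM 2, 563 without YM 1, 589 without VOM 1, 662 without VOM 3) and 503 at an adjusted p under 0.05 with no fold. The sham comparison gave 166 with replicates 1 and 2 and 1024 at an adjusted p under 0.05 with no fold. DESeq2 gave a called gene in 15 lists. The cause was not tested.

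The fit with a replicate block called 67 genes (48 higher, 19 lower), and 32 once the 28 genes were left out; the numbers are not shown to pair the libraries. With that block the log2 fold change was -0.007 for Gsta3, 0.001 for Nr1d1 and 0.298 for Saa2, and without the 28 genes as well 0.018 for Nr1d1 and 0.312 for Saa2.

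Mean distances within YF, within VOF and between were 0.957, 0.848 and 1.05 on log2(CPM + 1), 1.51, 2.30 and 2.86 over the 500 most variable genes, and 0.718, 0.557 and 0.679 without the 28 genes. With at least 10 counts in 3 libraries the log2 fold change was -0.003 for Cycs, -0.001 for Jund and -0.019 for Mup2, and after thinning it was -0.008 for Jun.

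Of the genes that were not called, these changed sign when 1 library was left out, with the range of the log2 fold change: Adh1 -0.175 to 0.048, Bcl2l1 -0.464 to 0.191, Ccl9 -0.305 to 0.098, Cdkn1a -3.317 to 3.344, Csnk1d -0.219 to 0.229, Ctnnb1 -0.12 to 0.043, Cycs -0.195 to 0.183, Cyp2c29 -0.127 to 0.298, Cyp7a1 -0.487 to 1.266, Cyp8b1 -0.132 to 0.335, Fgg -0.16 to 0.306, Gsta3 -0.238 to 0.193, Gstm1 -0.304 to 0.126, H2-Aa -0.228 to 0.788, H2-Eb1 -0.449 to 0.816, Hamp2 -1.303 to 0.085, Hnf4a -0.229 to 0.028, Hpx -0.357 to 0.053, Jun -0.413 to 0.373, Jund -0.187 to 0.271, Mat1a -0.022 to 0.141, Mrpl14 -0.184 to 0.226, Msmo1 -0.653 to 0.1, Mup1 -0.231 to 0.273, Mup2 -0.289 to 0.23, Nr1d1 -0.359 to 0.374, Pck1 -0.478 to 0.002, Psmb4 -0.072 to 0.123, Saa2 -4.754 to 3.404, Taf15 -0.029 to 0.287 and Tubb5 -0.111 to 0.432.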
